A study of Homo sapiens with 8 samples.

Results

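The NKG2D ligands are cell-surface proteins that mark a stressed, infected or damaged cell for natural killer (NK) cells and some T cells. They were taken as the genes MICA, MICB, ULBP1, ULBP2, ULBP3, RAET1E, RAET1G and RAET1L. Of these 8 genes, 6 had a probe and RAET1G and RAET1L had none that was matched, among 20296 genes with a probe in all. MICA, MICB, ULBP2 and RAET1E were well above background on all 8 arrays, ULBP3 on 3 and ULBP1 on 1. The arrays held total RNA of MCF10A, a line of human breast epithelium that does not form tumours, with p53 (p53+/+) or without it (p53-/-). Cells of both genotypes were collected untreated at 0 h, and again 12, 24 and 48 h after a pulse of doxorubicin (adriamycin, ADR), a drug that breaks DNA. The labels give 0.5 µg/ml of the drug for 2 h, whereas the methods of the study give another dose. Each of the 8 conditions had 1 single-colour array, so no value has an error between cultures. How the p53-/- cells were made, and whether they are 1 clone, is not given in the sources used here.

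NKG2D is an activating receptor that is carried to the NK cell surface with the adaptor DAP10. MICA and MICB resemble MHC class I heavy chains and are encoded in the MHC, whereas the ULBP and RAET1 genes form a family of their own on the same chromosome. DNA damage is known to raise several of these ligands through the kinases ATM and ATR, and p53 has been described as a regulator of ULBP1 and ULBP2. The ligands can also be cut from the surface by metalloproteases, so RNA and surface protein need not move together. Only RNA was measured here, and in a bulk sample fewer cells with a transcript and less transcript per cell cannot be told apart.

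The stretch before the start of a gene is shown for MICA and MICB, which are close copies of each other and whose RNA followed different courses after ADR, and for ULBP2, whose course crossed between the genotypes. The sequences are from RefSeq (GRCh38.p14), cover the 250 bases before the start, and all lie on the plus strand, at chr6:31403345-31403594 for MICA, chr6:31497895-31498144 for MICB and chr6:149941764-149942013 for ULBP2. Capitals mark matches to short motifs, searched on both strands, of which none overlapped another. The core of a heat shock element was taken as GAANNTTC. A GC box, which Sp family factors bind, was taken as GGGCGG. The CCAAT box, read by the factor NF-Y, was searched by the letters of its name, and an AP-1 site as TGANTCA.
MICA: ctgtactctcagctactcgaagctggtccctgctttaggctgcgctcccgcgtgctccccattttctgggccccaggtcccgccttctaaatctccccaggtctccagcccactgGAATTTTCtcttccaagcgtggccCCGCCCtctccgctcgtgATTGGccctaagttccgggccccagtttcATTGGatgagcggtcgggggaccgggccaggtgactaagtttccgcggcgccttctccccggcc
MICB: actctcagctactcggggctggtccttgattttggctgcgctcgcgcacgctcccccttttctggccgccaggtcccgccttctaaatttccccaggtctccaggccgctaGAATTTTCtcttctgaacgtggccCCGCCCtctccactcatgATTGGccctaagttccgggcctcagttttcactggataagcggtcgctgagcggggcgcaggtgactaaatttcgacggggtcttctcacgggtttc
ULBP2: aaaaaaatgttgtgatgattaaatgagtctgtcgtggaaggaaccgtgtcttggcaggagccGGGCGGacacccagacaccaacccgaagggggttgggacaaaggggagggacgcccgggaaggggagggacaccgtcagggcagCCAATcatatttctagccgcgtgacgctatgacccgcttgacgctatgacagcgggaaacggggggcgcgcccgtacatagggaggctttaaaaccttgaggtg
The MICA and MICB stretches were 85% identical over 246 aligned bases. Both held GAATTTTC, 135 bases before the start in MICA and 139 in MICB, and of all 35116 promoter stretches of this length 5.78% held GAANNTTC. Both also held 1 GC box, found in 42.6% of all stretches, and MICA held 2 CCAAT boxes against 1 in MICB, with 32% of all stretches holding at least 1. ULBP2 had no heat shock core, 1 GC box and 1 CCAAT box. None of these 3 stretches held TGANTCA, found in 6.57% of all stretches, or a p53 half-site, found in 5.57%. These matches describe letters and say nothing of binding in these cells.

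The values below are log2 processed signals relative to the 75th percentile of the same array, so 0 is the 75th percentile and a step of 1 is 2-fold. Genes are said to rise or fall only where the change reached 2-fold. The technical SD of a difference, from probes printed in 10 spots of an array, was 0.07 for MICA and MICB, 0.08 to 0.09 for RAET1E and 0.11 to 0.13 for ULBP2, whose probe had 1 spot. It covers the spread between spots, not between cultures, labelling reactions or arrays.

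Before the ligands, the labels were checked with genes that separated the treated genotypes. DCN, a matrix proteoglycan, had a log2 level of 2.09 to 2.37 in treated p53+/+ cells and 5.70 to 6.07 on the p53-/- arrays. Its level was 5.75 for the array labelled p53+/+ 0 h. For DCN that array thus sat with the p53-/- arrays and apart from treated p53+/+ cells. It is the only untreated array with its label. Lack of treatment and a wrong label therefore cannot be told apart here, and neither was tested. The array is called by its label throughout. The p53 target CDKN1A, which halts the cell cycle, read −1.14 there, −2.97 on the p53-/- 0 h array and 2.54 to 2.70 in treated p53+/+ cells. Of 8 basal epithelial markers, 7 were well above background on all 8 arrays, among them the cytokeratins KRT5, KRT14 and KRT17. The other, TP63, was so on 3. The epithelial adhesion gene CDH1 had a level of −3.55 on the p53-/- 0 h array and −3.13 for the array labelled p53+/+ 0 h, against 1.42 to 2.10 in treated p53+/+ cells. The summed signal of 6 fibroblast markers, of which 4 were above background on at least 1 array, was 3465 to 4025 on the treated p53+/+ arrays. It was 51482 to 80620 on the p53-/- arrays and 55220 on the array labelled p53+/+ 0 h. Nearly all of this sum was DCN, and the other 5 markers summed to 37 to 54, 352 to 659 and 551 in the same order, with COL1A2 and COL3A1 above background on no array. The treated p53+/+ arrays thus stood apart from the other 5 in DCN, CDH1 and the fibroblast sum, though not in every basal marker. ITGB4 read 5.06 on the p53-/- 0 h array, against 4.45 to 6.17 in treated p53+/+ cells. The part of these differences in the ligand values was not tested. All 8 arrays lay on 1 slide with the genotypes in different columns, and genotype and position therefore cannot be told apart. On the p53+/+ 48 h array none of the 10 spike-in transcripts was above background, against 6 on each of the other arrays.

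MICA, a ligand that stress raises in many epithelia, peaked at 12 h in both genotypes and was higher with p53 at every time under the scaling used. Cells with p53 had log2 levels of 4.46, 4.08 and 3.26 at 12, 24 and 48 h, next to 3.12 for the array labelled p53+/+ 0 h. Cells without p53 had 2.79 untreated, then 3.46, 2.82 and 2.57. The highest levels were thus those of p53+/+ cells at 12 and 24 h, and the p53-/- 24 h and 0 h arrays were the only neighbours in the order within 2 technical SD of each other. From the array labelled p53+/+ 0 h the log2 change was 1.34, 0.97 and 0.14, so MICA rose 2.53-fold at 12 h and lay just short of the 2-fold rule at 24 h. Measured from the p53-/- 0 h array instead it was 1.67, 1.29 and 0.47. Without p53 the change was 0.67, 0.03 and −0.22, none of it 2-fold. A second MICA probe gave changes of 1.31, 0.96 and 0.20 with p53, next to 0.73, 0.11 and −0.21 without it.

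MICB, the close copy of MICA, followed another course. With p53 its log2 level went through 3.01, 2.65 and 2.16 after treatment, from 2.75 for the array labelled p53+/+ 0 h. Without p53 it went from 1.57 untreated through 2.71 and 2.83 to 3.09. The p53-/- 0 h array was the lowest of the 8 and the p53-/- 48 h array the highest. MICB rose at every time without p53, by 1.14, 1.27 and 1.52 on the log2 scale, or 2.21-, 2.40- and 2.87-fold. These rises rest on the p53-/- 0 h array. None of the treated p53-/- levels was 2-fold above the 2.75 of the array labelled p53+/+ 0 h. Its p53+/+ changes were 0.26, −0.10 and −0.59 from the array labelled p53+/+ 0 h. From the p53-/- 0 h array they were 1.44, 1.08 and 0.59, so the direction of the p53+/+ response at 24 and 48 h turned with the 0 h array used. The 0 h arrays themselves differed by 1.18, the only 2-fold difference among the 6 ligands there (2.87% of all 15811 genes above background on at least 1 array were that much higher). A second MICB probe gave changes of 1.16, 1.08 and 1.36 without p53. With p53 this probe gave 0.44, 0.10 and −1.05, the last past the 2-fold rule.

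ULBP2, a ligand held to the membrane by a lipid anchor, rose in both genotypes, and was highest at 12 h with p53 and at 48 h without it. The array labelled p53+/+ 0 h gave a log2 level of 0.00, and treated cells with p53 gave 1.68, 1.31 and −0.03 in order of time. The p53-/- series climbed from −0.79 untreated through 0.21 and 0.67 to 0.88. The level in p53+/+ cells at 48 h was within 2 technical SD of that at 0 h, whereas the p53-/- 0 h array was the lowest of the 8. The p53+/+ rises were thus 3.21-fold at 12 h and 2.48-fold at 24 h, with none at 48 h. Without p53 the log2 change was 0.99, 1.46 and 1.67, or 1.99-, 2.74- and 3.17-fold. These changes rest on the p53-/- 0 h array, as no treated p53-/- level was 2-fold above the 0.00 of the array labelled p53+/+ 0 h. Taken from the p53-/- 0 h array, the p53+/+ changes were 2.47, 2.10 and 0.76.

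RAET1E, also called ULBP4, is a ligand with a transmembrane part that is known mainly from epithelia. Treated p53+/+ cells had log2 levels of 0.43, 0.41 and −0.14 in order of time, against the −1.10 of the array labelled p53+/+ 0 h. The p53-/- series began at −0.25, dipped to −0.97 at 12 h and returned through −0.16 to 0.21. The 2 lowest levels were those of the array labelled p53+/+ 0 h and of p53-/- cells at 12 h, within 2 technical SD of each other. The log2 change in p53+/+ cells was 1.53, 1.51 and 0.96, or 2.89- and 2.85-fold at the first 2 times. It was 0.68, 0.66 and 0.10 from the p53-/- 0 h array, so both rises rest on the array labelled p53+/+ 0 h. Without p53 the change was −0.72, 0.09 and 0.46. A second RAET1E probe gave changes of 1.44, 1.30 and 0.60 with p53, against −0.69, 0.03 and 0.28 without it.

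ULBP1 and ULBP3, further lipid-anchored ligands, were near background. ULBP1 was well above it only in p53-/- cells at 48 h (log2 level −5.16), where its bound against 0 h was 1.06-fold higher. A second ULBP1 probe was above background on no array. ULBP3 exceeded it on 3 arrays, those of p53-/- cells at 12 h (−4.42) and 48 h (−5.11) and the one labelled p53+/+ 0 h (−4.61). In p53-/- cells its bound at 12 h against 0 h was 1.77-fold higher, a log2 value of 0.82 with a technical SD of 0.65, and 0.28 with normexp. The ULBP1 bound was 0.08 on the log2 scale with a technical SD of 0.43. Both lie within 2 technical SD, so neither is a firm lower limit. A bound of this kind sets the brighter array against the lowest signal well above background on the dimmer one. The other pairs of arrays give no fold past the 2-fold rule for these genes.

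**Figure D1:**
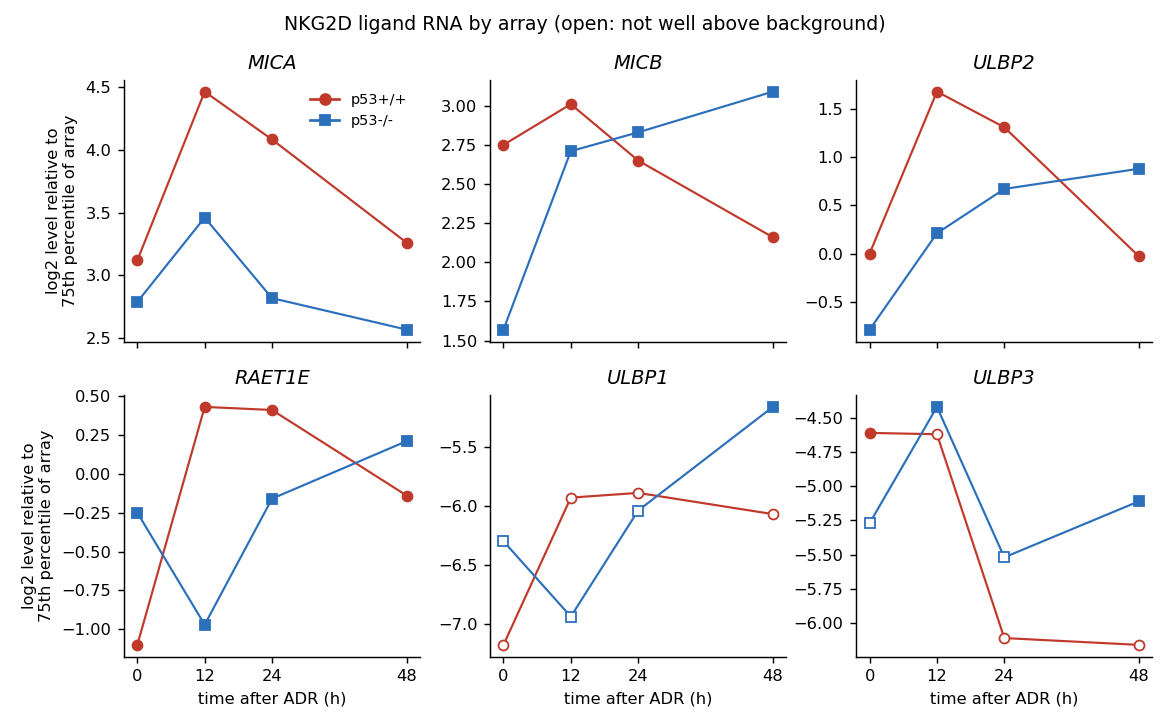
Log2 level (vertical axis, relative to the 75th percentile of the array) of the 6 ligands with a probe against time after ADR in hours, with 1 array per point, p53+/+ in red circles and p53-/- in blue squares. Filled points were well above background and open points were not, and each panel has its own vertical scale. MICA is higher in p53+/+ cells throughout under this scaling, but not at 48 h without scaling, whereas the courses of MICB, ULBP2 and RAET1E cross, with p53-/- cells higher at 48 h.

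Counted by time, 3 of the 6 ligands (MICA, ULBP2 and RAET1E) rose at least 2-fold from the array labelled p53+/+ 0 h at 12 h, as did 11.0% of all genes. At 24 h there were 2 (ULBP2 and RAET1E, 13.8% of all genes) and at 48 h 0 (14.9%). Without p53, 1 rose from the p53-/- 0 h array at 12 h (MICB, 3.33%), 2 at 24 h (MICB and ULBP2, 6.61%) and the same 2 at 48 h (10.2%). With all 3 times required, 0 of 6 rose in p53+/+ cells, where 8.07% of all genes did, and MICB in p53-/- cells, where 2.15% did. Scaling moved some of these counts. The p53+/+ count at 24 h was 1 without scaling (RAET1E) and 0 with spike-in scaling, and the p53-/- count at 12 h was 2 with the median or quantiles (with ULBP2) and 4 without scaling or with spike-ins (with MICA, ULBP2 and ULBP3). The median change of all genes moved as well. In p53-/- cells at 12 h it was 0.11 with the median, 0.03 with quantiles, 0.34 without scaling and 0.33 with spike-ins. In p53+/+ cells at 24 h it was −0.37 without scaling and −0.56 with spike-ins. The share of all genes that rose is given only for the scaling used, so the moved counts have no share to be set against. With 6 genes the counts cannot be read closely against the background.

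The comparison of treated cells with and without p53 asks which ligands depended on the genotype after damage, and it needs no 0 h array. The log2 difference, p53+/+ minus p53-/-, was 0.99, 1.26 and 0.69 for MICA at 12, 24 and 48 h. For MICB it was 0.30, −0.18 and −0.93, for ULBP2 1.47, 0.64 and −0.91, and for RAET1E 1.39, 0.56 and −0.35. MICA alone of the 4 kept one direction at all 3 times, and the other 3 turned from higher to lower in p53+/+ cells between 12 and 48 h. Some of these directions turned with the scaling, namely MICA at 48 h (−0.17 without scaling), MICB at 12 h (−0.16 without scaling), and ULBP2 and RAET1E at 24 h (−0.05 and −0.13 with spike-in scaling). At least 2-fold higher in p53+/+ cells were ULBP2 (2.78-fold) and RAET1E (2.63-fold) at 12 h, with 11.0% of all genes, and MICA (2.40-fold) at 24 h, with 11.7%. Without scaling only ULBP2 was 2-fold higher at 12 h and none at 24 h, and with spike-in scaling none at either time. At 48 h 0 of 6 were 2-fold lower, with 11.7% of all genes. That count was 1 with normexp (ULBP2) or averaged probes (MICB), 2 with quantile normalization (MICB and ULBP2) and 3 without scaling (these and RAET1E). Without scaling the median of all genes at 48 h was itself −0.69. None of the 6 was 2-fold higher or lower at all 3 times, against 6.28 and 4.91% of all genes. The median over the ligands with a value was 0.99, 0.60 and −0.63, beside 0.05, −0.02 and 0.11 over all genes.

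**Figure D2:**
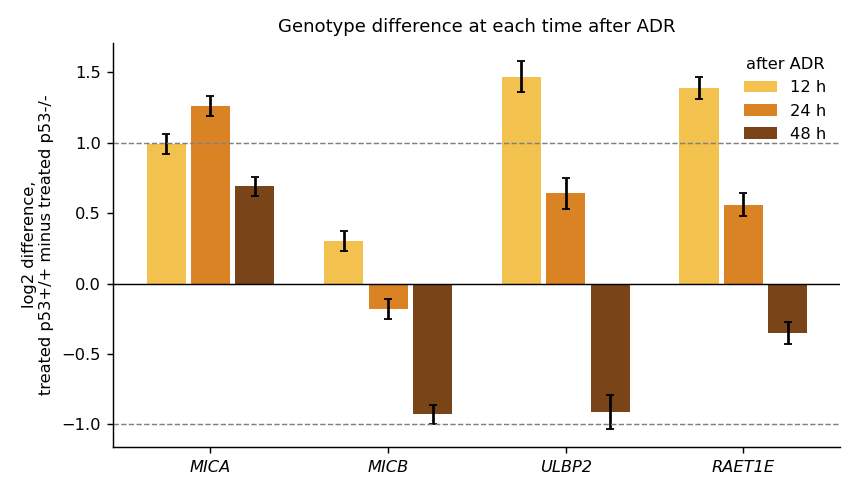
Log2 difference between treated p53+/+ and treated p53-/- cells (vertical axis) for MICA, MICB, ULBP2 and RAET1E, with a bar for each of 12, 24 and 48 h after ADR. Whiskers are the technical SD of the difference and dashed lines mark 2-fold. The bars of MICA all lie above 0 under this scaling (at 48 h not without scaling), and those of the other 3 genes pass from above to below 0.

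With the 3 treated times of a genotype standing in for replicates, limma gave a mean difference of 0.98 for MICA (SE 0.38, Benjamini-Hochberg adjusted p = 0.123), with p53+/+ higher at 3 of 3 times. Fitted with time as a block, the limma difference of MICA was again 0.98 with an SE of 0.20 and an adjusted p of 0.0435, past the threshold of 0.05. The block leaves fewer residual degrees of freedom, and the share of all probes that passed with it was not counted. Over 11 alternatives of this limma fit the adjusted p for MICA ran from 0.0435 to 0.505. The limma estimate was −0.27 for MICB (adjusted p = 0.517), 0.40 for ULBP2 (adjusted p = 0.589) and 0.53 for RAET1E (adjusted p = 0.324). It was 0.08 for ULBP1 (adjusted p = 0.918) and −0.61 for ULBP3 (adjusted p = 0.428), both mostly at background. So 0 of 6 passed without the block, while 10.6% of all 28947 probes passed as higher and 7.40% as lower. An unadjusted limma p under 0.05 was found for 1 of the 6 (MICA) and for 9850 of the 28947 probes. A mean over the 3 times cannot show a difference that turns over them, as those of MICB, ULBP2 and RAET1E did. Without the block the p-values measure the difference against movement over time within a culture series. With the block, movement shared by both genotypes is taken out, and the difference is measured against its own change over the 3 times. Neither measures the spread between cultures.

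Whether the response to ADR itself differed by genotype was asked with the interaction, which rests on the array labelled p53+/+ 0 h. The change with p53 minus that without it was −0.88, −1.36 and −2.11 for MICB at 12, 24 and 48 h, and 2.25, 1.42 and 0.50 for RAET1E. For ULBP2 it passed from 0.69 through −0.14 to −1.69, and for MICA it was 0.67, 0.94 and 0.36. In limma the interaction was −1.45 for MICB (SE 0.53, adjusted p = 0.23) and 1.39 for RAET1E (adjusted p = 0.366). It was 0.66 for MICA (adjusted p = 0.711) and −0.38 for ULBP2 (adjusted p = 0.876). None of the 6 ligands passed in this limma fit, against 0.940% of probes higher and 0.746% lower. An unadjusted limma p under 0.05 was found for 1 of the 6 (MICB) and for 4949 of all 28947 probes.

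The step from 12 to 48 h within a genotype, chosen after the values were seen, also needs no 0 h array. In p53+/+ cells all 4 ligands measured on every array were lower at 48 than at 12 h, by log2 changes of −1.20 for MICA, −0.85 for MICB, −1.71 for ULBP2 and −0.57 for RAET1E. MICA (2.30-fold) and ULBP2 (3.28-fold) thus fell, as did 5.28% of all genes, and MICB fell too without scaling or with averaged probes. The same step without p53 was −0.90 for MICA, but 0.38 for MICB, 0.67 for ULBP2 and 1.18 for RAET1E. RAET1E (2.26-fold) rose, as did 8.88% of all genes, and 0 of 6 fell, against 2.73%. MICA was thus lower at 48 h in both genotypes, and the other 3 moved in opposite directions, though most of these steps were under 2-fold. These directions held under each scaling that gives the step. The median step of all genes was 0.09 in p53+/+ and 0.06 in p53-/- cells. Since the p53+/+ 48 h array lacked spike-in signal, every p53+/+ value at 48 h rests on 1 array that stood apart in that respect, and the part of this was not tested.

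**Figure D3:**
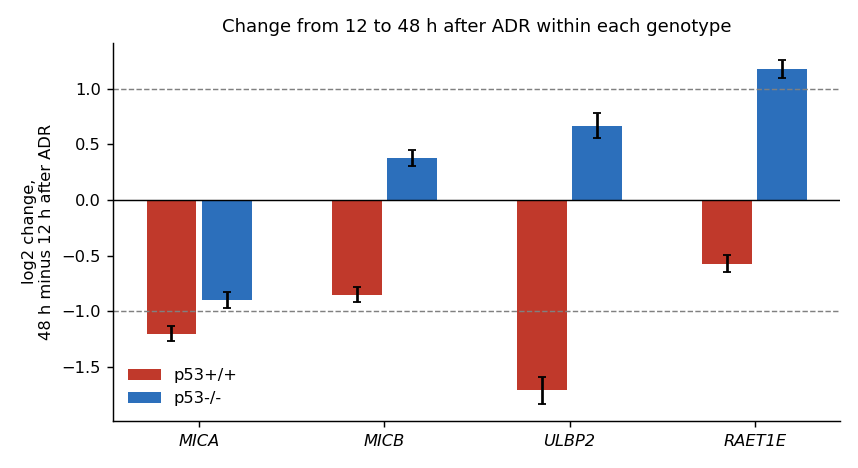
Log2 change from 12 to 48 h after ADR (vertical axis) in p53+/+ (red) and p53-/- (blue) cells for the 4 ligands measured on all arrays, each bar from 2 arrays. Whiskers are the technical SD and dashed lines mark 2-fold. Only MICA lies below 0 in both genotypes.

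Over the 8 arrays the levels of ULBP2 were most like those of MICB (Pearson r = 0.78), RAET1E (0.65) and MICA (0.64), whereas MICA and MICB had an r of 0.25. RAET1E had an r of 0.35 with MICA and 0.15 with MICB. These are descriptions over 8 arrays that share genotype, time and slide. Among 6762 other genes above background on every array that varied enough, the 3 most like each ligand had an r of 0.926 to 0.975. For MICA they were CEPT1, TFPI2 and NACC2, and for MICB SLC25A4, CSRP2 and BAMBI. For ULBP2 they were ZNF436, PINLYP and TMEM47, and for RAET1E FOXO4, AKTIP and OVGP1.

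Genes around the ligands were followed as lists. NKG2D itself (KLRK1), a receptor of lymphocytes, was above background on no array, and DAP10 (HCST) was above it on all 8 without a 2-fold change. Of 8 NK and T cell markers, NKG7, KLRD1, NCAM1 and PRF1 were above background on no array, CD3E on 1, GNLY on 5, CD3D on 6 and CD8A on all 8. GNLY, a granule protein of NK and T cells, read −3.27 to −1.78 on the p53-/- arrays and −1.59 for the array labelled p53+/+ 0 h, and was not above background in treated p53+/+ cells. The summed signal of the 8 markers was 154 to 185 in treated p53+/+ cells, 384 to 449 on the p53-/- arrays and 509 for the array labelled p53+/+ 0 h. The part of these genes in the ligand values was not tested. Of 12 ligands of other NK cell receptors 10 were measured. In limma over the treated arrays 2 were higher and 1 lower in p53+/+ cells, against 10.6 and 7.40% of all probes. By the 2-fold rule at all 3 times 0 were higher and 1 lower, against 6.28 and 4.91% of all genes. The lower one was CLEC2B, with differences of −2.26, −1.48 and −1.33 (adjusted p = 0.193 in limma). In limma NCR3LG1, the ligand of NKp30, was higher by 1.12 (adjusted p = 0.0206) and the adhesion molecule ICAM1 by 0.83 (adjusted p = 0.0354), while ICAM2 was lower (adjusted p = 0.029). NCR3LG1 was already higher by 1.46 on the array labelled p53+/+ 0 h than on the p53-/- 0 h array. Its changes from 0 h were 0.77, 0.57 and 1.12 with p53, and 1.31, 0.89 and 1.29 without it. ICAM2 was not above background in treated p53+/+ cells, so its log2 difference has only a bound, of −0.40, −0.26 and −1.07 at 12, 24 and 48 h. ICAM1 rose by 3.33, 2.98 and 2.92 on the log2 scale without p53, against 0.66, 0.55 and 0.86 with it, the latter from the array labelled p53+/+ 0 h. The 0 h arrays themselves differed by 3.21, with −3.45 on the p53-/- array and −0.25 on the one labelled p53+/+. Treated p53-/- cells had −0.13, −0.47 and −0.54, so their rises rest on the p53-/- 0 h array. The DNAM-1 ligands PVR and NECTIN2 differed between treated genotypes by −0.26 and 0.16 (adjusted p = 0.594 and 0.592 in limma), and HLA-E, which NKG2A on NK cells recognises, by 0.27 (adjusted p = 0.403).

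Of 8 genes of ligand shedding, 3 were higher and 1 lower in treated p53+/+ cells by limma, against 10.6 and 7.40% of all probes. By the 2-fold rule at all 3 times 1 was higher (TIMP3) and 1 lower (MMP2), against 6.28 and 4.91% of all genes. ADAM10, a protease that cuts MICA and ULBP2 from the membrane, was higher by 0.98 (adjusted p = 0.0389), and the membrane protease MMP14 by 1.39 (adjusted p = 0.0114). TIMP3, an inhibitor of such proteases, was higher by 3.47 (adjusted p = 0.00717) and rose from the array labelled p53+/+ 0 h by 1.84, 3.57 and 3.36. MMP2 was lower (adjusted p = 0.0174 in limma) but not above background in treated p53+/+ cells, with bounds of −2.21, −1.76 and −1.02. ADAM17 differed by 0.30 (adjusted p = 0.33 in limma). The list thus held a sheddase and an inhibitor that were both higher.

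Of 12 reported regulators of the ligands, 1 was higher and 3 were lower in treated p53+/+ cells by limma, against 10.6 and 7.40% of all probes. By the 2-fold rule at all 3 times 0 were higher and 3 lower, against 6.28 and 4.91% of all genes. The damage kinases CHEK1 and CHEK2 had estimates of −1.63 (adjusted p = 0.0297) and −1.45 (adjusted p = 0.00654). E2F1, a cell cycle factor, was lower (adjusted p = 0.0499), with differences of −2.78 and −4.08 at 12 and 24 h and a bound of −5.49 at 48 h, where it was not above background in p53+/+ cells. STAT3 was higher by 0.93 (adjusted p = 0.0227). ATM and ATR differed by −0.40 and 0.05 (adjusted p = 0.526 and 0.909), and HSF1, which binds heat shock elements, by −0.11 (adjusted p = 0.80). For comparison, all 12 of a list of known p53 targets were higher in treated p53+/+ cells by limma and at least 2-fold at all 3 times, with a median log2 difference of 3.41, 3.25 and 3.56 at 12, 24 and 48 h. Of 8 basal epithelial markers 7 were higher by limma, and of 6 fibroblast markers 4 were lower, of which only DCN was above background in treated p53+/+ cells.

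**Figure D4:**
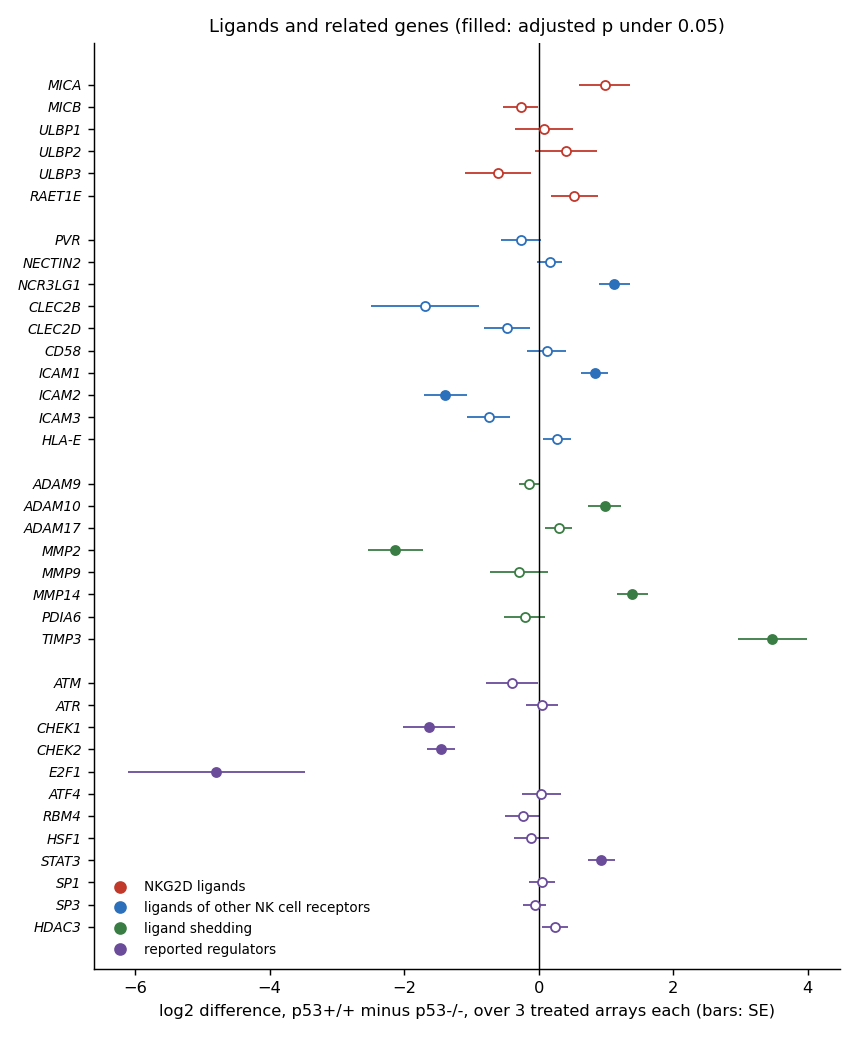
Limma estimate of the log2 difference between treated p53+/+ and treated p53-/- cells (horizontal axis), over 3 arrays each, for the 6 ligands, 10 ligands of other NK cell receptors, 8 shedding genes and 12 reported regulators. ICAM2 and MMP2 were not above background in treated p53+/+ cells, nor E2F1 at 48 h. Bars are SEs and filled points passed an adjusted p of 0.05. None of the 6 ligands is filled.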

How the data were processed

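MCF10A total RNA, from p53+/+ and from p53-/- cells untreated or 12, 24 or 48 h after ADR, was hybridised in 1 colour to 8 Agilent SurePrint G3 Human GE arrays. The authors deposited the output of Agilent Feature Extraction 10.7.3.1 for each array, whose processed signal is an intensity that the software had corrected for background. A table of all arrays held identical values and was not used. The files name the human build hg19, so no coordinates of GRCh38.p14 were set against them. No normalization between arrays is given in the sources used here. Samples were grouped by their labels. A gene that was also examined is not reported here.

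Spots that the software flagged as non-uniform or as outliers were dropped. The log2 processed signal minus that of the 75th percentile of the array was averaged over the spots of each of 42391 probes. A probe was well above background where most of its spots were. Transcript accessions were matched to RefSeq genes (27227 probes, 64.2%), and each gene took the probe whose mean over the 8 arrays was highest. A side below background entered a difference as the higher of its own value and the lowest signal well above background on that array. For the 28947 probes above background on some array, limma models (lmFit, eBayes) had genotype over the 6 treated arrays, or genotype and treatment with an interaction over all 8, each with 4 residual degrees of freedom, and p-values were adjusted over all these probes. The fits were also run on simulated arrays with independent noise. That cannot check p-values for which the times of a culture series stand in for replicates. The members, the gene lists, their named genes (all members, all listed genes and the 3 genes most like each member) and the rules were chosen with earlier results of these data known. Promoters came from a RefSeq table of GRCh38.p14. It holds MICA, MICB and ULBP2 with 1 start each, and only the 250 bases before the start were searched.

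The alternatives were the median, quantile normalization, no scaling and spike-in probes for scaling, normexp (offset 50), averaging over a gene's probes, other filters on dim probes, a 3-fold rule, 2 of 3 times, each time left out, time as a block and the p53-/- 0 h array as the baseline. Steps from 12 to 48 h and counts at single times were added after the values were seen. The 75th percentile of the signal was 661 to 1015 on the p53+/+ arrays and 879 to 1199 on the p53-/- arrays, and 49.8 to 62.9% of probes were well above background. Precision is limited by the number of arrays. The work used R 4.3.3 with limma 3.58.1, and Python 3.11.15 with pandas 2.3.3, numpy 2.4.6 and matplotlib 3.10.9.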

Additional observations from a re-analysis of the deposited data

Results flagged for a closer look

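From 12 to 48 h after ADR, 3 ligands moved in opposite directions in the 2 genotypes, each on 1 array per genotype and time, and the difference was not tested. The log2 step with p53 minus the step without it was −1.23 for MICB, −2.38 for ULBP2 and −1.75 for RAET1E. For ULBP2 both steps, −1.71 and 0.67, were larger than the technical SD of 0.11 to 0.12. For RAET1E the steps were −0.57 and 1.18, and a second probe gave −0.84 and 0.97. For MICB they were −0.85 and 0.38, and −1.49 and 0.20 with a second probe.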

How the results depend on the processing

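The count of ligands that rose at all 3 times in p53+/+ cells (0) was 2 (ULBP2 and RAET1E) when 2 of 3 times were enough, and 0 to 2 with a time left out, 2 of them without 48 h. That in p53-/- cells (1, MICB) was 2, with ULBP2, under median, quantile, no and spike-in scaling and with 2 of 3 times, 1 to 2 with a time left out, 2 of them without 12 h, and 0 with a 3-fold rule. ULBP2 missed 2-fold at 12 h by 0.01. Falls from 12 to 48 h in p53+/+ cells (2) numbered 1 with a 3-fold rule and 3, with MICB, without scaling or with averaged probes. In p53-/- cells the 1 rise was 0 with median scaling, normexp or a 3-fold rule, and the 0 falls were 1 with median scaling (MICA) or quantile normalization (ULBP3). The limma count of ligands higher in treated p53+/+ cells (0) was 1 (MICA) with time as a block, for which the share of all probes was not counted. Arrays of a genotype are paired only by time. The causes were not tested.

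Scaling moved the differences between genotypes. Without scaling the median of all genes shifted to −0.39, −0.47 and −0.69 at 12, 24 and 48 h, and the MICA difference was 0.54, 0.78 and −0.17. With spike-in scaling, which gives no p53+/+ value at 48 h, the median was −0.44 and −0.67 at 12 and 24 h, and the differences at 24 h were 0.57 for MICA, −0.05 for ULBP2 and −0.13 for RAET1E. Each of these MICA values lay above the median of its setting and time. So did those of ULBP2 and RAET1E at 24 h with spike-in scaling. Setting a difference against the median of all genes scales the arrays again, so this cannot check the scaling. No called value turned its direction under these alternatives. ULBP1 and ULBP3 were too dim for a measured change in most pairs of arrays.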
